A study of Mus musculus with 8 samples.

Results

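Potassium channel genes, here the mouse genes whose symbol begins with Kcn, encode the pore-forming and accessory subunits through which potassium ions cross the membranes of neurons, glia and vessel cells. Members were the rows of the count table with such a symbol and at least 80 counts over the 8 libraries, and 57 of the 87 Kcn rows, in a table of 21165 gene rows, met this rule. The rule used the summed counts but not the difference between genotypes. The last row inside the minimum was Kcnk3 with 92 counts and the first outside was Kcnk5 with 69. Of the 30 rows left out, 8 had no count and 22 had between 1 and 69.

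The libraries were made from polyA RNA of cortices dissected at E18.5 from 4 constitutive Nuak1 KO embryos and 4 WT embryos, with no treatment. Nuak1 encodes a kinase related to AMPK, and its loss in this line was in every cell of the embryo and not in neurons alone. The labels name 2 males among KO embryos, 1 male among WT embryos and 3 litters, but the columns carry only the genotype and a number, so neither sex nor litter was known for a library. KO libraries held 11027082 to 27014858 counts and WT libraries 9643711 to 18940484. Nuak1 itself stood between 11.1 and 20.5 normalized counts in KO libraries and between 877 and 1445 in WT libraries, where a normalized count is a count scaled to the mean effective library size. Library KO R1 stood apart, since its summed level of 8 meningeal fibroblast markers was 8547 normalized counts, against 310 to 490 in the other KO libraries and 265 to 340 in WT libraries. Neuronal identity was present in all libraries, with 8 of 8 neuron markers tested, 4 above 0 and 4 below 0 in log2 fold change. Of these, Snap25, a synaptic vesicle fusion protein, was lower in every KO library (2076 to 2438 normalized counts) than in every WT library (2662 to 3119), at -0.34 on the log2 scale (unadjusted p = 0.000564, adjusted p = 0.224, edgeR; adjusted p = 0.0075 with DESeq2). In such bulk tissue, fewer cells of a type and less RNA per cell cannot be told apart.

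Channels that carry potassium set the resting potential of neurons, repolarise the membrane after each action potential and limit repetitive firing. Voltage-gated (Kv) channels open on depolarisation, inward rectifiers (Kir) pass current near the resting potential, tandem-pore (K2P) channels give a background leak, and calcium-activated channels couple calcium entry to repolarisation. Beta subunits, KChIP proteins and the beta subunits of the BK channel bind the pore-forming subunits and set their gating and their number at the surface. Before birth the cortex is still exchanging an immature set of these channels for the adult one. The members comprised 27 voltage-gated genes with 6 auxiliary genes, 7 inward rectifiers, 7 tandem-pore genes, 7 calcium-activated genes with 2 auxiliary genes, and Kcnrg, a regulator that lies outside these families. Sodium-activated Kcnt1 and Kcnt2 and the pH-sensitive Kcnu1 were placed with the calcium-activated genes because they share the Slo structure.

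The pore-forming families share a short signature, the selectivity filter, whose backbone oxygens strip water from potassium ions. The search used the residues S or T, then V, I or L, then G, then Y or F, then G. For each gene of NCBIM37, the assembly behind mm9, it read the longest protein whose coding sequence began with ATG and held only whole codons. It matched once in 26 of 27 voltage-gated genes, once in all 7 inward rectifiers, once in 6 of 7 calcium-activated genes and at 2 places in 6 of 7 tandem-pore genes, which carry a pair of pore domains in each subunit. No auxiliary gene matched. The exceptions were Kcnh8 and Kcnma1, whose proteins kept by this rule had only 215 and 232 residues, and Kcnk1, whose letters differ from those searched. Longer annotated proteins that the rule left out were not searched. The coding sequence around the filter is shown for the pore-forming genes on which the comparison of genotypes turned, with the 15 filter bases in capitals, 36 bases before and 9 after, read 5′ to 3′ on the coding strand.
Kcnv1: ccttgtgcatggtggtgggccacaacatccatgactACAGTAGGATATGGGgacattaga
Kcnd3: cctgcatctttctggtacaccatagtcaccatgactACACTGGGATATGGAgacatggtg
Kcnj2: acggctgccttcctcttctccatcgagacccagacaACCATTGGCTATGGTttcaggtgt
Kcnj9: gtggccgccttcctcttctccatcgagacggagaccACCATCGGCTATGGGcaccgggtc
Kcnk10, first pore: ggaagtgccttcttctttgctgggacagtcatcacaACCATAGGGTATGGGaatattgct
Kcnk10, second pore: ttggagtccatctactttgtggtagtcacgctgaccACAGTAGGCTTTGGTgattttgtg
Kcnk12, first pore: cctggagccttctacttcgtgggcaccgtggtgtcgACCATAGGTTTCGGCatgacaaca
Kcnk12, second pore: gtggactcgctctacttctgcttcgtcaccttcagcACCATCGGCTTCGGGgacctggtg

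The windows lay at chr15:44940826-44940885 for Kcnv1 on the minus strand, at chr11:110933485-110933544 for Kcnj2 on the plus strand, at chr1:174256306-174256365 for Kcnj9 on the minus strand, and at chr12:99678806-99678865 and chr17:88145784-88145843, both on the minus strand, for the second pores of Kcnk10 and Kcnk12. All of these are coding sequence within 1 exon. The windows of Kcnd3 and of both first pores were joined across an intron. The filter read TVGYG in Kcnv1, TLGYG in Kcnd3 and TIGYG in Kcnj2 and Kcnj9. In Kcnk10 it read TIGYG in the first pore and TVGFG in the second, and in Kcnk12 TIGFG in both. Kcnj2 and Kcnj9 shared 46 of 60 bases and 13 of the 15 filter bases, Kcnv1 and Kcnd3 shared 38 of 60, and the second pores of Kcnk10 and Kcnk12 also shared 38. Within a gene the pores were less alike, with 29 of 60 bases in Kcnk10 and 25 in Kcnk12.

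Levels were compared between genes as normalized counts per kilobase of exon, averaged over the 8 libraries. Exon lengths came from GENCODE vM1 by symbol, and may differ from the gene models on which reads were counted. Kcnma1, the pore of the BK channel, stood highest at 195, then came Kcnn2, an SK channel that calcium opens through calmodulin, at 192, the mechanosensitive leak channel Kcnk2 at 176 and the BK accessory subunit Kcnmb4 at 166. Kcnk10, a relative of Kcnk2, had 127, and Kcnip3, a calcium-binding partner of Kv4 channels, had 126. Kcnh3 led the voltage-gated genes at 124, with Kcnd2 at 66.2 and Kcnh2 at 65.1. The inward rectifiers were lower, led by Kcnj8 at 33.3 and Kcnj11 at 32.05, the pores of channels closed by ATP. The median member had 32.05 per kilobase and the median gene tested 121. Low on this scale were the Kv1 genes of mature axons, with Kcna1 at 1.94 and Kcna2 at 4.39. Kcnh8 was left out of this scale for want of a single annotated length. By raw normalized count, Kcnma1 averaged 957 ± 89.8 over the KO libraries and 898 ± 110 over the WT libraries (SD, n = 4), and the members in sum held 0.0698% ± 0.0030 of counts in KO and 0.0705% ± 0.0057 in WT.

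**Figure D1:**
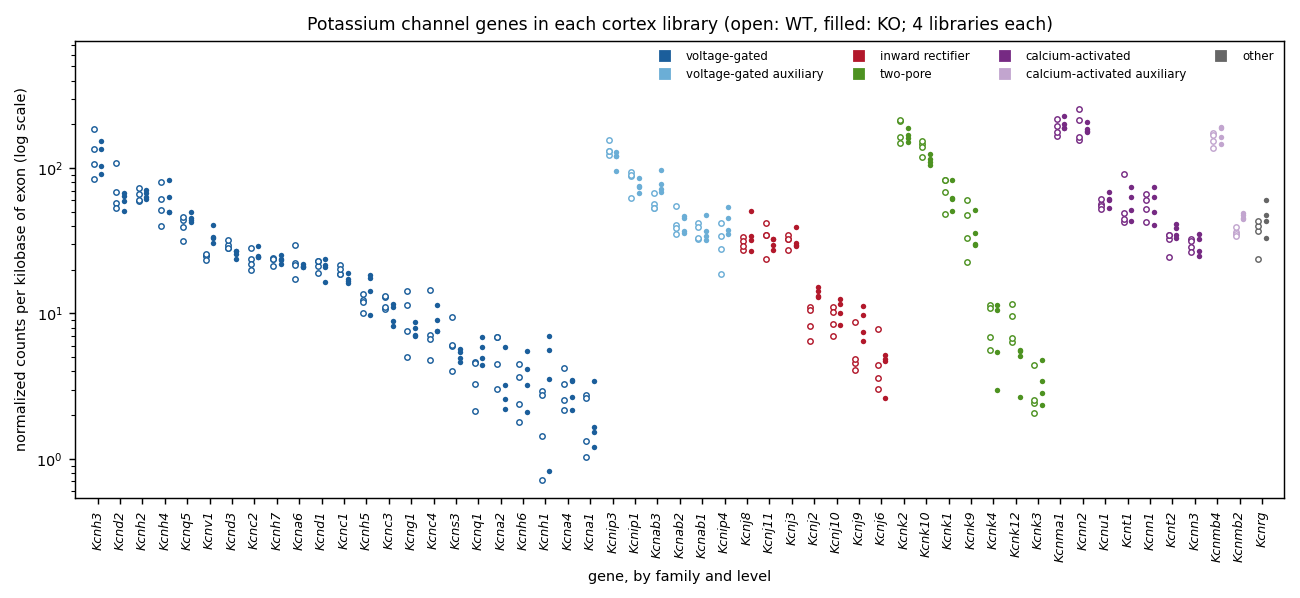
Normalized counts per kilobase of exon (log axis) for 53 of the 56 members with a single annotated length, by family; each point is 1 library, open for WT and filled for KO. The leading genes Kcnma1, Kcnn2, Kcnk2 and Kcnmb4 sit between 166 and 195 on average, and the points of both genotypes overlap for most genes.

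The quasi-likelihood test of edgeR asked for each gene whether genotype moved its count beyond the spread between libraries, and 56 members passed its filter on low counts. The study called a gene at a log2 fold change beyond 0.25 in either direction with p below 0.05 before adjustment. At these thresholds 6 members were called higher in KO, or 10.7% of those tested, where 2.45% of all 12699 genes tested were. These 6 were Kcnv1, Kcnab3, Kcnip4, Kcnj2, Kcnj9 and Kcnmb2. Called lower were 2, Kcnk10 and Kcnk12, or 3.57% against 1.8% of all genes. No member passed an adjusted p of 0.05 (edgeR with Benjamini-Hochberg adjustment over all genes), as 0.0709% of all genes did, and the smallest adjusted p was 0.404. At an unadjusted p under 0.05 alone there were 6 higher and 3 lower, the third being Kcnd3, against 4.51% and 3.18% of all genes, and DESeq2, with 0 past its adjusted p, gave 6 in all. The calls are therefore unadjusted ones, on 4 libraries a genotype. Without library KO R1, 4 members were called higher (Kcnv1, Kcnab3, Kcnj2 and Kcnmb2) and 1 lower (Kcnk10), where 1.81% and 1.72% of all genes were.

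The members as a whole leaned neither way. In log2 fold change 28 were above 0 and 28 below, with a median of -0.0020 against -0.012 over all genes tested, and 40 of 56 (71.4%) were within 0.25 of 0. Among voltage-gated genes 12 were above 0 and 15 below, with a median of -0.06, and their auxiliary genes split 3 and 3. Inward rectifiers had 5 above and 2 below with a median of 0.22. All 6 tandem-pore genes tested were below 0, with a median of -0.15. The seventh, Kcnk3, was removed by the filter on low counts. In the fits without 1 library that tested Kcnk3, its log2 fold change was above 0, at 0.088 to 0.47. Calcium-activated genes had 5 above and 2 below, with a median of 0.06, and both BK accessory genes were above 0. These family counts are descriptions, since members of a family share libraries and a family holds few genes.

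**Figure D2:**
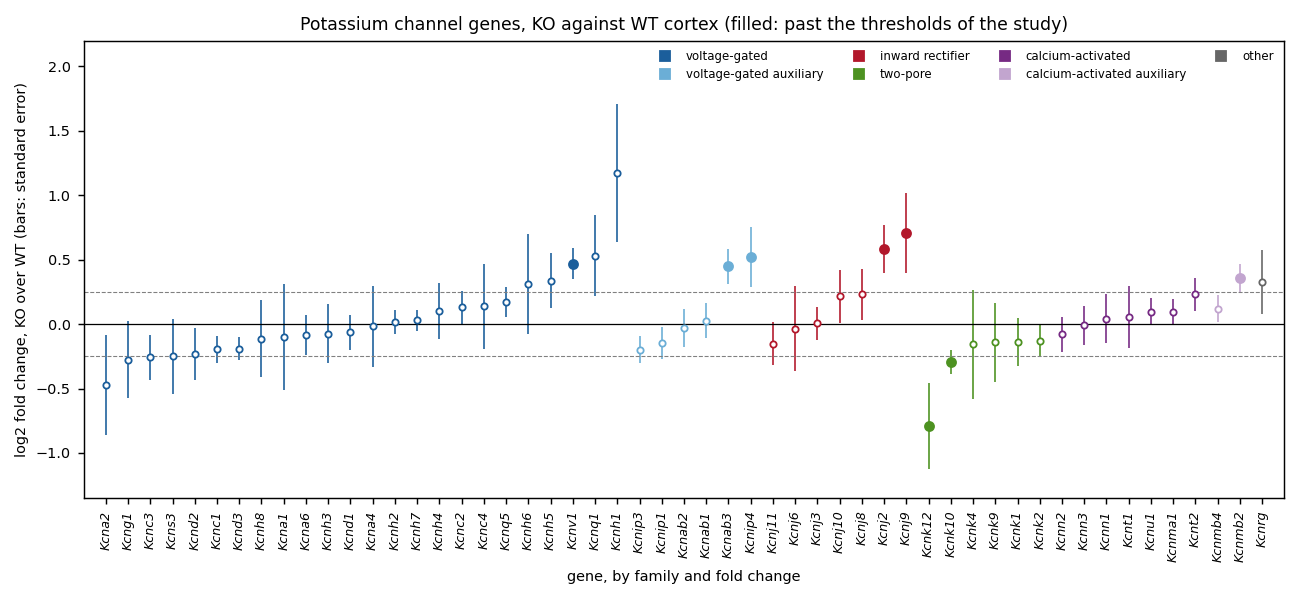
Log2 fold change of KO over WT for 53 of the 56 members tested, by family, with the standard error from edgeR's fit as bars; filled points passed the thresholds of the study and dashed lines mark 0.25 on either side of 0. The 6 filled points above the upper line and the 2 below the lower line are the called members, and all 6 tandem-pore genes tested lie below 0.

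Among pore-forming Kv genes, Kcnv1 (chr15:44937830-44946480, minus strand) was the member with the smallest p. It encodes Kv8.1, a subunit that makes no channel alone and joins Kv2 subunits to alter their gating. Its normalized counts were 137, 184, 152 and 148 in KO R1 to R4 and 114, 112, 106 and 115 in WT R1 to R4. Each KO library stood above each WT library, and the WT libraries lay close together. KO exceeded WT by 0.47 on the log2 scale (standard error 0.12, unadjusted p = 0.00251, adjusted p = 0.404, edgeR with Benjamini-Hochberg adjustment).

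Kcnd3 (chr3:105255248-105476920, plus strand) encodes Kv4.3, a pore of the fast inactivating A-type current. It read 247, 258, 256 and 229 in KO and 270, 284, 305 and 269 in WT. Every WT library was above every KO library, with WT R4 and KO R2 the nearest pair. Its log2 fold change of -0.19 (standard error 0.09, unadjusted p = 0.0495, edgeR) was smaller than the fold threshold. Its unadjusted p was over 0.05 in 7 of the 8 fits without 1 library, reaching 0.139 without WT R3, and with DESeq2 (0.0830). The 2 other Kv4 genes gave wider spreads, with Kcnd1 at 87.1 to 125 in KO and 100 to 122 in WT. Kcnd2 had 307, 331, 261 and 349 in KO against 350, 294, 275 and 561 in WT, where WT R4 alone was far above the rest. Its log2 fold change was -0.23 with all libraries and 0.028 without WT R4.

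Other abundant Kv genes had no call. Kcnh2, the ERG channel that repolarises the heart, had 317 ± 21.2 in KO and 314 ± 30.3 in WT (SD, n = 4). Kcnh3 ranged from 337 to 564 in KO and from 312 to 689 in WT, with its maximum in WT R4 as for Kcnd2. The largest fold change of all members belonged to Kcnh1, an EAG channel singled out here after its values were seen, at 1.17 with a standard error of 0.54. It read 41.0, 6.08, 26.0 and 51.3 in KO and 21.6, 10.5, 5.28 and 20.3 in WT, so that KO R2 was lower than 3 of 4 WT libraries (unadjusted p = 0.0512, edgeR). Without KO R2 it was 1.47 at an unadjusted p of 0.00591 (edgeR). Over the fits without 1 library it ranged from 0.80 to 1.47, past both thresholds of the study in 3 of them.

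Of the Kv accessory genes, Kcnab3 (chr11:69139760-69146544, plus strand) encodes the Kv beta 3 subunit, which binds Kv1 channels in the cytoplasm. Its normalized counts were 222, 195, 204 and 280 in KO and 194, 162, 152 and 152 in WT. The genotypes did not overlap, though KO R2 and WT R1 differed by under 1 count, and KO R4 stood highest. In the fit KO was higher by 0.45 on the log2 scale (standard error 0.14, unadjusted p = 0.00756, edgeR). The other beta subunits were without a call, Kcnab1 at 0.03 and Kcnab2 at -0.03 on the log2 scale. In the annotation, 5.1% of the exon length of Kcnab3 overlaps a transcript of the opposite strand, and the strand setting of the counting was not given in the sources used here.

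Kcnip4 (chr5:48780743-49915940, minus strand) encodes KChIP4, a calcium sensor that binds Kv4 channels. It read 120, 92.7, 100 and 143 in KO and 74.0, 49.9, 91.2 and 111 in WT. The lowest KO library was above 3 of the 4 WT libraries, and WT R4 lay inside the KO range. Its log2 fold change was 0.52 (standard error 0.23, unadjusted p = 0.0469, edgeR), and the call was lost in 4 of the 8 fits that each left out 1 library, without KO R1, KO R4, WT R1 or WT R2, with unadjusted p up to 0.155. Its relatives were below 0 without a call, Kcnip1 at -0.15 (standard error 0.12) and Kcnip3 at -0.20 (standard error 0.10).

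Among inward rectifiers, Kcnj2 (chr11:110927478-110938135, plus strand) encodes Kir2.1, which holds the resting potential near that of potassium. Its normalized counts were 71.7, 77.5, 71.2 and 82.3 in KO and 60.6, 57.8, 44.9 and 35.5 in WT. The lowest KO library exceeded the highest WT library, and the KO libraries were the tighter group. The log2 fold change was 0.58 (standard error 0.18, unadjusted p = 0.00924, adjusted p = 0.526, edgeR with Benjamini-Hochberg adjustment), a fitted fold of 1.496.

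Kcnj9 (chr1:174251164-174259394, minus strand) encodes Kir3.3, a GIRK subunit that opens on G protein signalling. It read 32.03, 24.3, 21.0 and 37.1 in KO and 13.4, 14.9, 15.9 and 28.7 in WT. All WT libraries but R4 were below every KO library, and WT R4 lay inside the KO range. Between genotypes the log2 fold change was 0.71 (standard error 0.31, unadjusted p = 0.0428, edgeR), from 12 to 55 raw counts a library. The call was lost in 5 of 8 fits without 1 library (KO R1, KO R4, WT R1, WT R2 or WT R3) and with DESeq2 (unadjusted p = 0.0672). The other GIRK genes had log2 fold changes of 0.01 for Kcnj3 and -0.04 for Kcnj6. In the annotation, 31.1% of the exon length of Kcnj3 overlaps a transcript of the opposite strand.

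Kcnj8, the pore of the ATP-sensitive channel of pericytes and smooth muscle, had 111, 59.3, 74.9 and 70.1 in KO and 74.0, 69.2, 59.5 and 64.2 in WT. KO R1 alone stood above the rest, and the log2 fold change of 0.23 (standard error 0.20) was 0.048 without it. In the same library the summed level of 8 markers of mural cells was 3771 normalized counts, against 2040 to 2261 in the other KO libraries and 1980 to 2147 in WT libraries. All 8 mural markers had a log2 fold change above 0, with a median of 0.49. Of them 2 had an unadjusted p under 0.05 in edgeR, where 4.51% of all genes were higher at that p. Without KO R1, 6 mural markers were above 0 and the median was 0.13. The part of mural cells in the levels of Kcnj8 was not tested. Kcnj11, the neuronal counterpart, had 83.6 to 99.9 in KO and 72.6 to 128 in WT. Kcnj10, the Kir4.1 channel of astroglia, had 45.2 to 67.9 in KO and 37.7 to 59.6 in WT. In sum, the inward rectifiers gave 511 to 550 normalized counts in KO and 463 to 509.7 in WT, and the lowest KO sum, in R3, and the highest WT sum, in R1, differed by under 1.

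**Figure D3:**
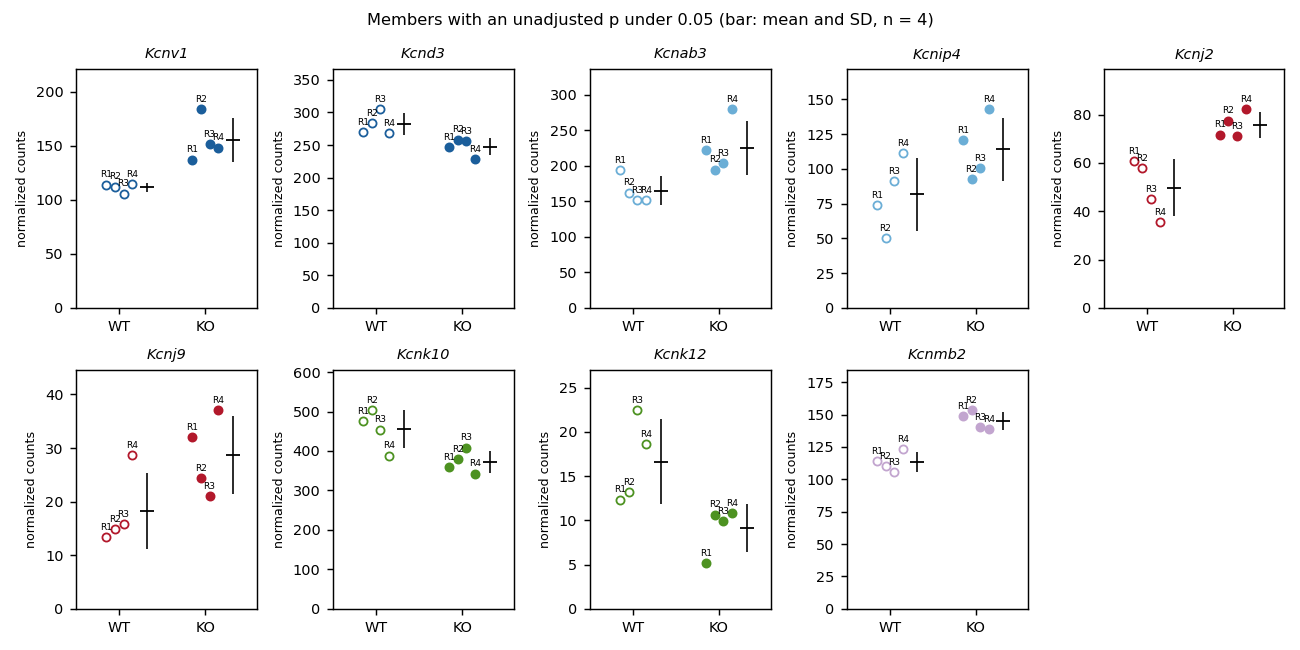
Normalized counts in each library (R1 to R4) for the 9 members with an unadjusted p under 0.05, open for WT and filled for KO, with the mean and SD of 4 libraries as a bar; every axis starts at 0. Kcnv1, Kcnab3, Kcnj2, Kcnmb2, Kcnd3 and Kcnk12 show no overlap between genotypes, and WT R4 lies among the KO points for Kcnip4 and Kcnj9.

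Among tandem-pore genes, Kcnk10 (chr12:99672204-99816150, minus strand) encodes TREK-2, a leak channel opened by stretch and lipids. Its normalized counts were 360, 379, 408 and 343 in KO and 476, 504, 454 and 388 in WT. KO R3 was above WT R4, and the other WT libraries were above all of KO. The log2 fold change was -0.30 (standard error 0.10, unadjusted p = 0.00996, adjusted p = 0.526, edgeR with Benjamini-Hochberg adjustment). Without WT R2 it was -0.24, under the fold threshold, at an unadjusted p below 0.05.

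Kcnk12 (chr17:88145177-88197334, minus strand) encodes THIK-2, a subunit with little current on its own. It read 5.12, 10.6, 9.90 and 10.8 in KO and 12.3, 13.1, 22.5 and 18.6 in WT. The genotypes did not overlap, but these are levels of 4 to 17 raw counts a library. Its fitted log2 fold change was -0.79 (standard error 0.34, unadjusted p = 0.0385, edgeR). The call was lost in 5 of the 7 fits without 1 library in which the gene was tested, those without KO R1, KO R2, KO R3, WT R3 or WT R4, and with DESeq2 (unadjusted p = 0.0844).

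The most abundant leak channel, Kcnk2 (TREK-1), had 583, 684, 615 and 549 in KO and 588, 542, 760 and 775 in WT, with WT R3 and R4 above all of KO and WT R2 the lowest of the 8. Its log2 fold change was -0.13 (standard error 0.12). Kcnk1, Kcnk4 and Kcnk9 had fold changes between -0.16 and -0.14 on the log2 scale, each smaller than its standard error. Kcnk3 had 8.97 to 18.2 in KO and 7.93 to 16.9 in WT and was not tested with all 8 libraries. Summed over the family, KO libraries had 1117 to 1289 and WT libraries 1264 to 1466 normalized counts, with KO R2 above WT R2. Leaving out 1 library at a time put up to 2 tandem-pore genes above 0, counting Kcnk3 where it passed the filter.

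Among calcium-activated genes no pore-forming member was called. Kcnma1 had a log2 fold change of 0.10 (standard error 0.09), and Kcnn2 one of -0.08 (standard error 0.14) which became 0.073 without WT R2, its highest library at 965. Kcnn1 and Kcnn3, the other SK genes, were at 0.04 and -0.01. The sodium-activated Kcnt1 had 682 in WT R4 and 318 to 367 in the other WT libraries, with KO at 324 to 555. Its log2 fold change was 0.06 (standard error 0.24), and -0.093 to 0.37 with 1 library left out. Only without WT R4, at 0.37, was it past both thresholds of the study. Kcnt2 was at 0.23 (standard error 0.13, unadjusted p = 0.0947, edgeR). Kcnu1, whose channel is known from sperm, had 191 to 252 normalized counts over the 8 libraries and a log2 fold change of 0.10.

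Kcnmb2 (chr3:31801429-32099102, plus strand), the BK beta 2 subunit that makes the channel inactivate, was the called accessory gene. It read 149, 154, 140 and 139 in KO and 114, 110, 106 and 123 in WT. The genotypes did not overlap and the SDs over 4 libraries were small, 6.90 in KO and 7.46 in WT. The log2 fold change was 0.36 (standard error 0.11, unadjusted p = 0.00693, adjusted p = 0.486, edgeR with Benjamini-Hochberg adjustment). Kcnmb4, the main beta subunit of neuronal BK channels, was at 0.12 (standard error 0.10). In the annotation, 20.8% of its exon length overlaps 4933400F03Rik and 10.7% overlaps 1700058G18Rik, both on the opposite strand.

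Across the members called, 4 of the 6 higher ones, Kcnv1, Kcnab3, Kcnj2 and Kcnmb2, kept their call in all 8 fits without 1 library and in each other fit tried. These were also the 4 higher members without overlap between genotypes, 7.14% of those tested, where 2.64% of all genes had no overlap in that direction. The 2 lower members without overlap, Kcnd3 and Kcnk12, made 3.57% against 1.85% of all genes. The 4 genes belong to 4 different families or accessory groups, and lie on chromosomes 15, 11 and 3, with Kcnab3 and Kcnj2 both on 11 but far apart.

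The highest and lowest library of each member was set beside the same for all genes. WT R4 was the highest of the 8 libraries for 14 of 56 members (25%), near its 21.4% of all genes tested. KO R4 was the highest for 12 (21.4%) and 8.35% of all genes. In the other direction, KO R1 was the highest for 5 (8.93%) and 16.8% of all genes, and WT R4 the lowest for 5 (8.93%) and 20.6%. WT R3 was the lowest for 17 (30.4%) and 17.1% of all genes, and WT R2 for 12 (21.4%) and 13.2%. The median coefficient of variation of a member was 20.2% in WT and 16.7% in KO, against 10.2% and 8.18% over all genes, and the median member was also less abundant, at 132 normalized counts against 469. The most even member over the 8 libraries was Kcnh7, whose highest library was 1.18 times its lowest, and the least even was Kcnh1, at 9.70 times.

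**Figure D4:**
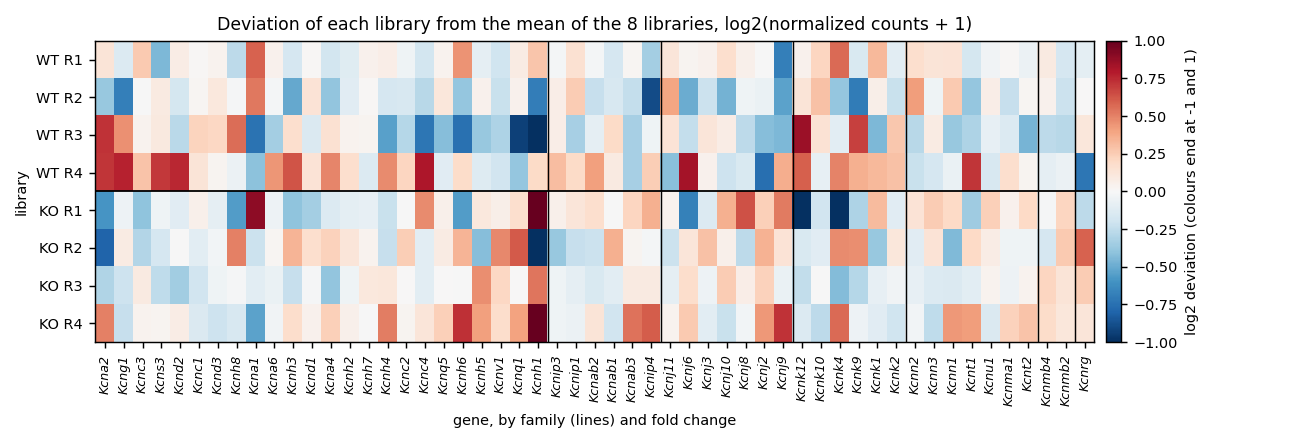
Deviation of each library from the mean of the 8 libraries on the scale of log2(normalized counts + 1) for 53 of the 56 members tested; rows are libraries, columns are genes ordered by family and fold change, red is above the mean and blue below. Over all 56 members WT R4 is the highest library for 14 (25%, against 21.4% of all genes tested). WT R3 is the lowest for 17 (30.4%, against 17.1%), and Kcnh1 shows the widest spread.

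Genes whose products bind or anchor potassium channels, or that share a compartment with them, were described alongside. Of 28 listed partners, 24 were tested, with 9 above 0 and 15 below, and a median log2 fold change of -0.03. Lower at an unadjusted p under 0.05 were 6 and higher were 0, against 3.18% and 4.51% of all genes, and none passed an adjusted p of 0.05. Lgi1, a secreted protein that binds the ADAM22 receptor near Kv1 channels, read 261, 275, 232 and 291 in KO and 311, 344, 378 and 432 in WT. Each KO library stood below each WT library, and the log2 fold change was -0.46 (standard error 0.12, unadjusted p = 0.00202, edgeR). The axonal anchor Ank3 was at -0.20, the Kv1 clustering protein Cntnap2 at -0.25, the scaffold Dlg4 at -0.14 and the BK partner Lrrc55 at -0.31. The BK partners Lrrc26, Lrrc38 and Lrrc52 had no count in any library.

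The 11 tested potassium pump and cotransporter genes, 3 above 0 and 8 below with a median of -0.02, and the 8 tested sodium channel genes, 4 above and 4 below with a median of 0.0017, held none with an unadjusted p under 0.05 in edgeR and none with DESeq2's. Slc12a5, the KCC2 transporter that lowers neuronal chloride as the cortex matures, had 649 to 787 in KO and 569 to 1096 in WT. Of markers of other cells, all 8 interneuron markers were below 0 in log2 fold change, with a median of -0.17 and summed levels of 2721 to 3042 in KO and 2784 to 3748 in WT, and 1 of them, Gad2, had an unadjusted p under 0.05 (0.0164, edgeR). Single genes of 3 other lists also did in edgeR, Slc1a3 of astroglia at -0.30 (0.0224), the endothelial Cldn5 at 0.38 (0.00424) and the haemoglobin gene Hba-a1 at 2.44 (0.0109). Hba-a1 was high in KO R1 and KO R2 alone, at 2123 and 3637 normalized counts. It had 321 in KO R3, 164 in KO R4 and 215 to 349 in WT libraries. Acta2 and Rgs5 of the mural list and the 4 meningeal fibroblast genes tested also had an unadjusted p under 0.05 in edgeR. Radial glia markers were 2 above and 8 below 0, endothelial ones 7 above and 1 below, microglial ones 7 of 7 above, oligodendrocyte precursor ones 5 of 5 above and red blood cell ones 4 above and 1 below. Without KO R1 the median of the mural list was 0.13 and that of the endothelial list 0.07, in place of 0.49 and 0.18. The median of the meningeal fibroblast list was 0.40 without KO R1, in place of 2.93. Their part in the levels of the channel genes was not tested.

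Below the minimum of 80 counts, 2 rows had counts nearly in KO alone, and they are named after their values were seen and without a test. Kcne2, an accessory subunit of the choroid plexus and other epithelia, had 2, 3, 4 and 1 raw counts in KO and 0 in every WT library. Kcnj13, the Kir7.1 channel of the same epithelium, had 3, 2, 4 and 3 in KO and 0, 0, 1 and 0 in WT. The summed level of 6 choroid plexus markers was 91.0 normalized counts in KO R1, 7.43 to 19.8 in the other KO libraries and 14.4 to 27.0 in WT libraries. Most of the sum in KO R1 came from Aqp1 (65.3) and Clic6 (16.7). Ttr had 3.84 there and 5.14 to 15.2 in WT libraries, and the markers left were under 3 in KO R1. In the annotation 49.1% of the exon length of Kcnj13 overlaps Gigyf2 on the opposite strand.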

How the data were processed

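PolyA RNA of 8 cortices (4 Nuak1 KO, 4 WT, E18.5) was made into libraries with a stranded kit. Adapters and bases of a Phred score under 20 were removed by the authors (Cutadapt 1.13, Prinseq), as were reads under 25 bp. Mapping used TopHat2 2.0.13 with SAMtools 0.1.19 and the mm9 assembly, and HTSeq-count gave the raw counts per gene that the authors deposited. The rows of the deposited counts carry FasterDB gene identifiers. The annotation release and the strand setting of the counting are not given in the sources used here. Near-identical copies and overlapping genes can lose or gain counts at that step.

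From these, edgeR 4.0.16 under R 4.3.3 gave the quasi-likelihood test, with genotype the only term, TMM scaling, the filter filterByExpr and Benjamini-Hochberg adjustment over 12699 genes. The standard error is the absolute log2 fold change divided by the square root of F. DESeq2, here in version 1.42.0, served as the alternative. The authors also used DESeq2 for these data, in a version that their methods do not give. The script was tested on simulated counts. Totals were 9643711 to 27014858 a library. Libraries of a genotype differed beyond sampling noise, with a chi-square of at least 5.73 per degree of freedom in each pair. P-values weigh the difference between genotypes against the spread between these embryos, in which litter and sex could not be set apart.

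Exon lengths, positions (1-based) and coding sequences came from GENCODE vM1 on NCBIM37, matched by symbol for 56 of 57 members with a single length. Levels per kilobase and overlap percentages thus rest on gene models that may differ from the FasterDB ones counted. Members, families and lists were chosen with earlier results of these data known. Named were members with an unadjusted p under 0.05 or no overlap between genotypes, the 2 most abundant per kilobase of each family (4 for voltage-gated), Nuak1, and listed partners with an unadjusted p under 0.05. Other genes named, among them relatives in the same subfamily, were added for context after their values were seen. Some genes that enter these counts are not reported here by name and are left out of the figures. Alternatives are given in the closing section.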

Additional observations from a re-analysis of the deposited data

Results flagged for a closer look

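Groups of 4 libraries were screened for a highest or lowest library whose gap to the nearest other took most of the range of the group (Dixon's test at 95%). Of 44 groups of 4 screened, 2 were marked, where chance gives 2.2. Kcnj9 in WT R4 was marked, at 28.7 normalized counts against 13.4 to 15.9 in the other WT libraries. Kcnk12 in KO R1 was marked as well, at 5.12 normalized counts against 9.90 to 10.8 in the other KO libraries.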

How the results depend on the processing

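At the thresholds of the study the count of 6 members higher in KO was 5 with DESeq2, 6 with its size factors, 6 with at least 10 counts in every library, 6 with the length trend removed, 7 with no filter on low counts, and 4 to 8 with 1 library left out. The count of 2 lower members was 1 with DESeq2, 1 with at least 10 counts in every library and 1 at an unadjusted p under 0.01, and 0 to 2 with 1 library left out, being 0 without WT R2. For the tandem-pore family, 0 of the 6 genes tested were above 0, 1 gene with no filter, and 0 to 2 with 1 library left out. The fit with no filter and some fits without 1 library also tested Kcnk3, a seventh gene. Of the 6, only Kcnk4 and Kcnk9 rose above 0 with 1 library left out, to at most 0.069 and 0.12. With 1 library left out, the direction turned in 23 of the 56 members tested, 0 of them called. Among the genes named by rule and reported here these were Kcnd2 (-0.34 to 0.028), Kcnh2 (-0.019 to 0.083), Kcnh3 (-0.24 to 0.16) and Kcnn2 (-0.17 to 0.073). Of the genes named for context, Kcna1, Kcnab1, Kcnab2, Kcnd1, Kcnh7, Kcnh8, Kcnj3, Kcnj6, Kcnk4, Kcnk9, Kcnn1, Kcnn3 and Kcnt1 also turned. Calls were gained by Kcnh1 with no filter and without KO R2, WT R1 or WT R4, Kcnh5 without KO R2, Kcnip1 without WT R3 and Kcnt1 without WT R4. Of 348 log2 fold changes recomputed over 27 named genes, 308 kept direction and side of the threshold, 28 lost their call, 5 gained one and 7 turned. The cause was not tested. Depth limits Kcnk12, Kcnj9 and Kcnh1, at 4 to 76 raw counts a library. No paired analysis was possible because no label ties the running number in a column's name to an embryo or litter.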
